A study of Mus musculus with 7 samples.

Results

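Dhcr7, the enzyme gene of the last step of cholesterol synthesis, stood 20th by fold among 6395 listed peaks of higher accessibility. The peaks are from T follicular helper (Tfh) cells of mice given an antibody against the type I interferon receptor. The rank depends on the measure. By the plain ratio of depth-scaled coverage, Dhcr7 (21.8) stood below Mbtps2 (49.3), Ebp (42.9) and Lrp8 (26.0) among 17 sterol pathway peaks. Both measures come from a pooled comparison with no spread between mice. The ratio's background was a 1 kb window at Dhcr7, 10 kb at Lrp8 and the genome rate at Mbtps2 and Ebp. The order by ratio thus compares unlike windows. Mbtps2, Ebp and Lrp8 had 13 to 23 fragments and 0 control IgG fragments at the site. At the site alone the exact 95% lower limits of the ratio were 1.62 at Mbtps2, 1.40 at Ebp and 0.862 at Lrp8. At Dhcr7 the limit was 8.21 with 0 control fragments at the site and 5.42 with 1. The Dhcr7 peak lay at an internal start of the gene rather than at the gene's 5′ end. Of 7 sterol genes examined, 3 had a row in the list under their own name (Dhcr7, Hmgcs1 and Srebf2), with 3 of its 6395 peaks in all. The other 4 (Sqle, Idi1, Fdft1 and Insig1) had no such row. The 7 genes were chosen by name around Dhcr7, which was selected on its pileup and fold in this same list, so those values are given below as a description and were not tested.

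Chromatin accessibility was read by ATAC-seq, which uses a transposase to tag DNA that is not packed away. The treated mice were B6/Sle1.Yaa animals of 5 months that had received anti-IFNAR1 2 times a week for 4 weeks (4 samples), and the controls were B6/Sle1.Yaa animals of the same age given anti-rat IgG on the same schedule (3 samples). All 7 samples thus carry the Sle1 and Yaa lupus-susceptibility loci, no untreated or nonautoimmune animal is among them, and whether a sample pools several spleens is not stated. The treatment label spells the antibody target IFNA1 and the series title IFNAR1. Tfh cells were sorted from spleen by surface CD4, CD44, CXCR5 and PD-1, without GITR and with low PSGL-1.

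Only peaks higher with anti-IFNAR1 than with control IgG were in the list, as 1 value per comparison and none per sample. No value below therefore carries a spread between mice, and a gene with no row may have been closed, equally open on both sides, lower with anti-IFNAR1 or too thinly covered. Each pileup, fold and q is the authors' own, from the authors' deposited table. Pileup is taken to count the fragments that overlap at the top of the peak, its summit. It is scaled down on the anti-IFNAR1 side, which was 3.54 times as deep as the control side. Fold is that pileup over the control background, with 1 added to both. Fragments lay between 11 and 512 per peak, with a median of 41. Of 10 Tfh and CD4 T cell markers, 7 had a listed peak (Cd3e, Cd4, Pdcd1, Bcl6, Maf, Tcf7 and Sh2d1a), against 1 of 14 markers of B, CD8 T, NK and myeloid cells, which was Cd14 with 13 fragments, and 21.1% of all 21900 protein-coding genes. With any listed peak within 5 kb, the counts were 9 of 10 and 2 of 14, beside 29.1% of protein-coding genes. The Tfh and CD4 T cell markers without a row were Cxcr5, Icos and Cd40lg. A list of peaks higher with anti-IFNAR1 cannot show which cells were sorted, so cell identity is not read from these counts.

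Cells make cholesterol from acetyl-CoA through mevalonate, farnesyl diphosphate, squalene and lanosterol. When sterols in the endoplasmic reticulum run low, the precursor of the transcription factor SREBP-2 leaves its anchor, the INSIG proteins, is carried by SCAP to the Golgi and is cleaved there by the proteases of Mbtps1 and Mbtps2, after which it switches on sterol synthesis and uptake. Activated T cells raise this programme to build membrane, and type I interferon is known to lower sterol synthesis in macrophages. The 7 genes cover the entry into the pathway (Hmgcs1), its middle (Idi1, Fdft1 and Sqle), its end (Dhcr7) and its control (Srebf2 and Insig1). None of the 7 is an uptake gene, although the working name of the set includes uptake, and uptake genes are taken up with the wider pathway.

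The sequences shown are the 250 bases before each RefSeq start that a listed peak reached. Those before the 5′-most Dhcr7 start, which no listed peak reached, are added. Only the window before the internal Dhcr7 start lay wholly under its peak. Relative to the start, the peak began at -121 at Hmgcs1, -7 at Srebf2 and -44 at Insig1. The rest of each of those windows lay outside the peak. Windows before RefSeq starts (GRCm38.p6, the build of mm10) were at hand for 5 of the 7 genes, and not for Sqle and Fdft1. Capitals mark matches on either strand to the CCAAT box (CCAAT), the GC box (GGGCGG), the E-box (CACGTG), the SREBP core (TCACNCCAC) and that core without its last base (TCACNCCA), which lies within the longer one. Every window is on the plus strand, at chr7:143822917-143823166 and chr7:143829964-143830213 for Dhcr7, chr13:119690101-119690350 for Hmgcs1, chr15:82147019-82147268 for Srebf2 and chr5:28071162-28071411 for Insig1.
Dhcr7 5′-most start, no listed peak: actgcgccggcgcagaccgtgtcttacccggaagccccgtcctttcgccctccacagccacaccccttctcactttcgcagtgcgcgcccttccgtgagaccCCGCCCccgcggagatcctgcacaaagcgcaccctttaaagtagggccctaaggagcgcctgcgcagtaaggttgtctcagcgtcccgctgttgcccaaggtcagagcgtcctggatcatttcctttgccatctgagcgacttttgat
Dhcr7 internal start, under the listed peak: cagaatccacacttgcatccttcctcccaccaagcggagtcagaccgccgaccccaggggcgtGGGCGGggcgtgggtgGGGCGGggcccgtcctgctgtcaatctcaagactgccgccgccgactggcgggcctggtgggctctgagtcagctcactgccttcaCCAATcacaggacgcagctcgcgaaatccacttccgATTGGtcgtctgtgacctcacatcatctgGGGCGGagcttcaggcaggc
Hmgcs1 start: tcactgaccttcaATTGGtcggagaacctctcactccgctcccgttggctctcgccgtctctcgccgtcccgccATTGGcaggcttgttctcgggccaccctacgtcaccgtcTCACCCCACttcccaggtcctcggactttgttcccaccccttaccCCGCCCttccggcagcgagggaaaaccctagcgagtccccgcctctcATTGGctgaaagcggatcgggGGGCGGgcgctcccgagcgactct
Srebf2 start: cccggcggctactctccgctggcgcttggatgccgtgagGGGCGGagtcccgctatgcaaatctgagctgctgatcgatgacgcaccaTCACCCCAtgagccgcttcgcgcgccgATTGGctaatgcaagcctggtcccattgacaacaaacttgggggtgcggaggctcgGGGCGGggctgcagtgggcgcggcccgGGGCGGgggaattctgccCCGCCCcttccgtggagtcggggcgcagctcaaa
Insig1 start: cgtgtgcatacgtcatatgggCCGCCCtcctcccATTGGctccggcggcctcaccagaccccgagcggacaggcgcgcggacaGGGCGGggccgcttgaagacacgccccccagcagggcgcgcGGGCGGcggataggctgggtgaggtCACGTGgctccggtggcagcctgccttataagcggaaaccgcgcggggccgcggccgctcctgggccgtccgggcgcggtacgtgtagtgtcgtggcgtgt

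The Dhcr7 peak spanned chromosome 7 from 143829556 to 143830456 (mm10), 900 bp, and the file placed it in the TSS section. Dhcr7 encodes 7-dehydrocholesterol reductase, which turns 7-dehydrocholesterol, also the precursor of vitamin D, into cholesterol. On the anti-IFNAR1 side 109 fragments covered the summit, a pileup of 30.81 at control depth, against 6 control IgG fragments in the surrounding 1 kb, a background of 1.42 per site. The fold was 13.2 and the q 2.05e-24. Scaled for depth, coverage was 21.8 times the control background (exact 95% interval 9.68 to 60.6). At most 1 control fragment covered the site itself. With that 1 fragment the ratio was 30.8 (exact 95% interval 5.42 to 1228), and with 0 the exact 95% lower limit of the ratio was 8.21. These intervals cover counting error only, and copies made by PCR were not told apart from separate molecules.

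The summit of this peak, at 143829997, lay 6830 bp downstream of the 5′ end of Dhcr7 and 217 bp before the third of its RefSeq starts, at 143830214. The RefSeq gene runs from 143823167 to 143848410 on the plus strand. The transcript the file matched to the peak was Dhcr7-012. No listed peak lay over either of the other RefSeq starts, at 143823167 and 143823399, and no other listed peak had its summit nearer to them. Such a position was in the minority among listed peaks at gene starts. Of 4199 TSS peaks named for a protein-coding gene, 364 (8.67%) had their summit more than 5 kb from the gene's RefSeq 5′ end and 3417 (81.4%) had it within 1 kb.

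**Figure D1:**
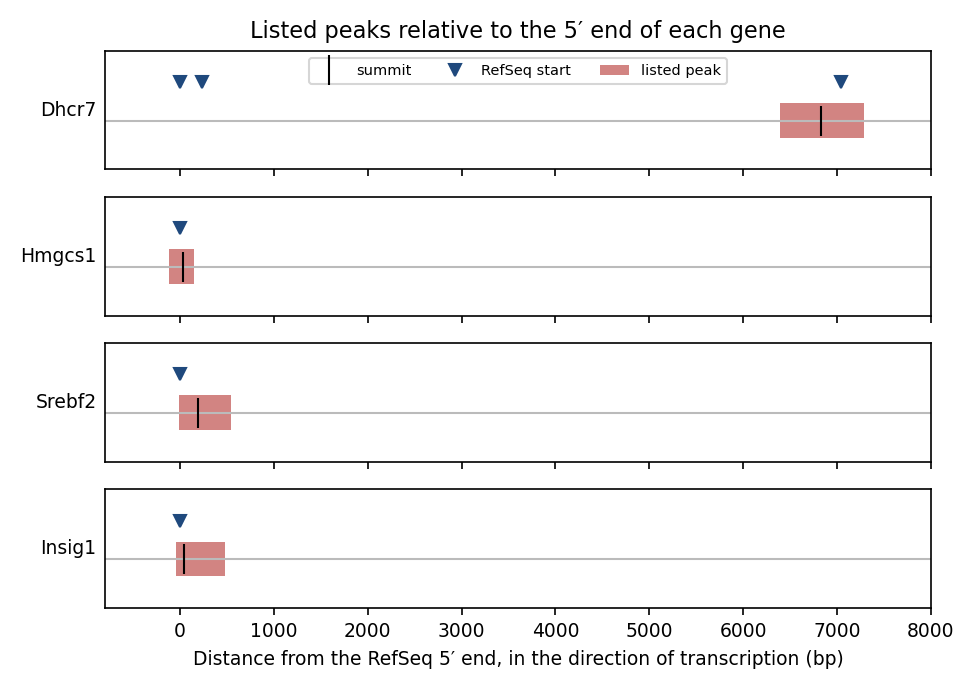
Listed peaks at 4 sterol genes, with distance from the RefSeq 5′ end in bp on the horizontal axis. Bars are peaks, black ticks their summits and triangles RefSeq starts. The Dhcr7 peak lies around the last of 3 starts, which is 7047 bp into the gene, and its summit is 6830 bp into it. The other 3 summits lie within 186 bp of the 5′ end.

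By sequence, the internal Dhcr7 window and the 5′-most one differ. The window under the peak held 2 CCAAT boxes and 3 GC boxes, with a GC content of 65.2%. The window before the 5′-most start held 0 CCAAT boxes and 1 GC box, at 61.6%. Over 21263 RefSeq windows of protein-coding genes the median GC content was 55.6%, 35.4% held a CCAAT box and 42.6% a GC box. The first pair of GC boxes under the peak ends 182 and 166 bases before the internal start, on the downstream side of the summit. Neither window held the SREBP core. A match is a description of these letters and not of a bound site.

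Among the 6395 peaks the Dhcr7 peak stood 20th by fold, 51st by pileup and 7th by q. Its fold was above that of 99.7% of the list, whose median was 4.74. Among the 4632 TSS peaks it stood 18th by fold and 48th by pileup. Peaks as deep as this one were usually less uneven. Of the 120 listed peaks with 99 to 119 fragments, the Dhcr7 fold was the highest. Their median fold was 4.56 and their median control background 5.90 fragments, against 1.42 at Dhcr7. This set of peaks of like depth was formed after the values had been seen. At like depth the fold depends almost only on the background, so the high fold and the low background are 1 fact.

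Hmgcs1, the synthase that joins acetyl-CoA to acetoacetyl-CoA early in the pathway, had a peak on chromosome 13 from 119690230 to 119690504. It was 274 bp long, in the TSS section, with its summit 31 bp past the RefSeq start at 119690351. It held 50 anti-IFNAR1 fragments at a pileup of 14.13, against 3 control IgG fragments at the site. The fold was 3.78 and the q 0.00104, and the depth-scaled ratio was 4.71 (exact 95% interval 1.52 to 23.6). Its fold lay above that of 19.6% of the list and its pileup above that of 64.3%. The Hmgcs1 start thus had above-median coverage and a below-median fold. Its window held 1 SREBP core, ending 129 bases before the start, 3 CCAAT boxes and 2 GC boxes. That core lay outside the listed peak, which began at -121 from the start. The SREBP core was found in 214 of the 21263 windows (1.01%).

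Srebf2, which encodes SREBP-2 itself, had a peak on chromosome 15 from 82147262 to 82147813, 551 bp in the TSS section, with its summit 186 bp past the RefSeq start at 82147269. It held 60 anti-IFNAR1 fragments at a pileup of 16.96, against 15 control IgG fragments in the surrounding 1 kb, a background of 3.54. The fold was 3.96 and the q 0.00039, and the depth-scaled ratio was 4.79 (exact 95% interval 2.69 to 9.09). At most 3 control fragments covered the site itself, and with 3 the ratio was 5.65 (exact 95% interval 1.84 to 28.2). In pileup it lay above 77.7% of the list and in fold above 25.1%. The Srebf2 window held 4 GC boxes and 1 CCAAT box, and the SREBP core without its last base, a form searched after the sequence had been seen. All these matches lay outside the listed peak, which began at -7, as the nearest ended 29 bases before the start. That shorter core was found in 3.47% of windows, the Hmgcs1 one included.

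Insig1, which encodes the sterol-sensing anchor that holds SREBP precursors back, had no row under its name, but a listed peak lay over its start. The peak spanned chromosome 5 from 28071368 to 28071888 and reached the RefSeq start of Insig1 at 28071412, with its summit 39 bp past it. The file assigned it to Gm26608, a lincRNA on the opposite strand. It held 78 anti-IFNAR1 fragments at a pileup of 22.05, against 18 control IgG fragments in the surrounding 1 kb, a background of 4.25. The fold was 4.39, the q 1.02e-06 and the depth-scaled ratio 5.19 (exact 95% interval 3.08 to 9.21). With the most that the site itself could hold, 4 control fragments, the ratio was 5.51 (exact 95% interval 2.07 to 20.7). In pileup it lay above 91.6% of the list and in fold above 39.5%. Which of the divergent transcripts the open site serves cannot be told from the list. The window before Insig1 held 3 GC boxes, 1 CCAAT box and 1 E-box, a motif found in 6.63% of windows, and its GC content was 72.8%. All these matches lay outside the listed peak, which began at -44, as the nearest ended 96 bases before the start.

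None of the windows before the RefSeq starts of Dhcr7, Hmgcs1, Idi1, Srebf2 and Insig1 held the shortened interferon-stimulated core GAAANNGAA or the gamma-activated site TTCNNNGAA. These occurred in 6.84% and 6.58% of all windows, so 0 matches in a few windows is common.

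**Figure D2:**
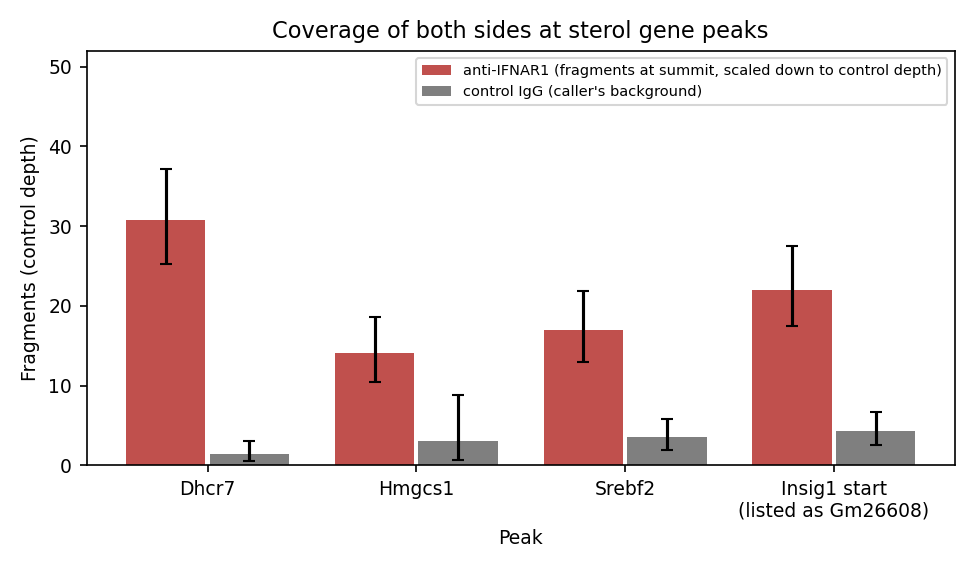
Coverage at 4 sterol gene peaks in fragments at control depth, with anti-IFNAR1 in red and the control IgG background in grey. Error bars are exact Poisson 95% intervals of the pooled fragment counts and hold no spread between mice. Dhcr7 has the highest anti-IFNAR1 bar, 30.8, and the lowest control bar, 1.42.

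Set side by side, Dhcr7 had the most anti-IFNAR1 fragments of the 4 starts and the lowest control background. The exact Poisson intervals of the control background overlapped. They were 0.52 to 3.08 at Dhcr7, 0.62 to 8.77 at Hmgcs1, 1.98 to 5.84 at Srebf2 and 2.52 to 6.71 at Insig1. The Hmgcs1 background was read at the site and the others over 1 kb, so the background ratio of Dhcr7 to Hmgcs1 compares unlike windows. Fold at Dhcr7 was 3.48 times that at Hmgcs1 and 3.33 times that at Srebf2. Dhcr7 had 2.18 times the anti-IFNAR1 fragments of Hmgcs1 and 0.472 times its control background. Against Srebf2 these were 1.82 and 0.4 times. Fold at Srebf2 was 1.05 times that at Hmgcs1. Because Dhcr7 was selected on its fold, these values are a description and were not tested against each other.

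The remaining 3 genes had neither a row nor a nearby peak. Sqle encodes squalene epoxidase, a rate-limiting enzyme after mevalonate, and its nearest listed peak was 189.0 kb away, in a 3′ UTR exon of Nsmce2. Idi1, the isopentenyl diphosphate isomerase gene, had its nearest listed peak 14.3 kb away at the start of Wdr37, with a fold of 4.01. Fdft1, the squalene synthase gene, had its nearest one 12.6 kb away at the start of Neil2, with a fold of 5.31. With 3 of 7 genes named in the list the share stands beside 21.1% of the 21900 protein-coding genes in RefSeq. When any listed peak within 5 kb of the gene counted, 4 of 7 had one, beside 29.1% of protein-coding genes. Since Dhcr7 was chosen from this list, nothing is read from these shares.

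**Figure D3:**
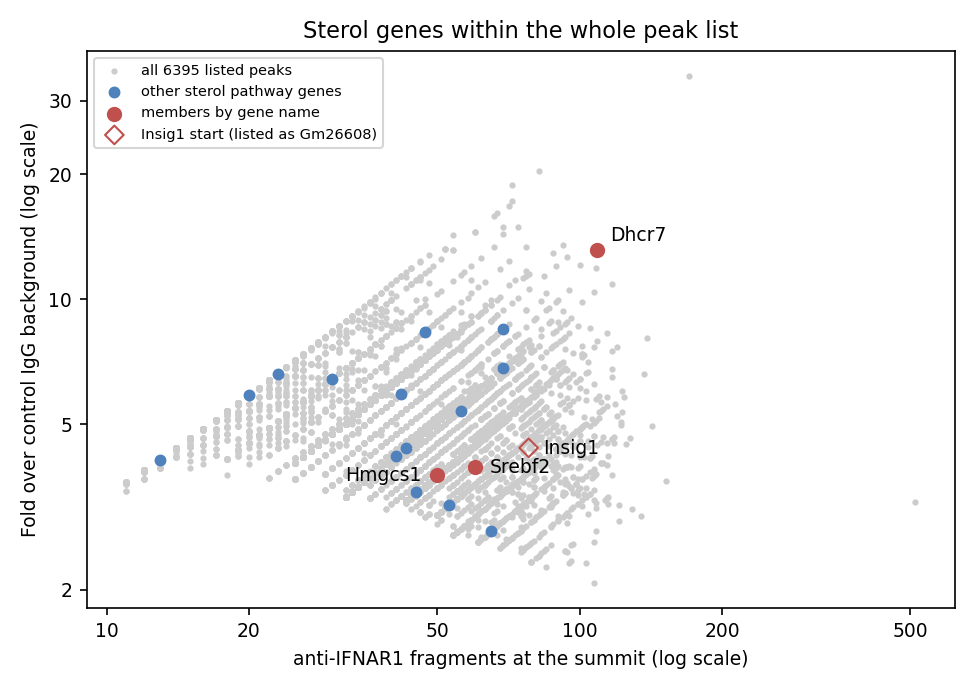
Fold over the control IgG background against anti-IFNAR1 fragments at the summit, both on log axes, for all 6395 listed peaks in grey. Red points are Dhcr7, Hmgcs1 and Srebf2, the open diamond the peak at the Insig1 start, and blue points the other sterol pathway genes. Dhcr7 stands apart at 109 fragments and a fold of 13.2, while the other 3 lie between folds of 3.78 and 4.39.

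The wider pathway was described with 44 genes in 7 lists ordered by their role, the 7 genes above included. Of the 44, 17 (38.6%) had a listed peak under their name, all in the TSS section, beside 21.1% of protein-coding genes. With TSS peaks alone the count stayed at 17, beside 18.5%. At a q of 0.01 it was 13 (29.5%), beside 18.1%, and with a pileup of at least 20 it was 1, Dhcr7, beside 3.21%. Within 5 kb it was 21 (47.7%), beside 29.1%. Closed and tissue-specific genes are part of that background, and the sterol genes are widely expressed, so the gap between these shares was not tested. The median fold of the 17 peaks was 5.39, beside 4.74 over the list. For at least 5 of the 17 the control side had 0 fragments at the site, as it had for at least 2021 of the 6395. At these peaks the background left no room for a control fragment, and other sites may also have held 0. Only these peaks were set to the fold that 3 control fragments would give, the limit that a count of 0 allows. The medians were then 3.78 for the pathway and 3.79 for the list. Peaks with 1 or 2 control fragments kept their fold, so the reset was uneven and no agreement is read from these medians.

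At the entry to the pathway, Hmgcs1 had a row and Acat2, a thiolase gene, had none. From mevalonate to farnesyl diphosphate, 0 of 7 genes had a row (Mvk, Pmvk, Mvd, Idi1, Idi2, Fdps and Ggps1). The start of Ggps1, which makes geranylgeranyl diphosphate for protein prenylation, did lie under a peak of 97 fragments and a fold of 5.68 that the file assigned to its divergent neighbour Arid4b. A peak at the start of Rusc1 lay 2.42 kb from Fdps. From farnesyl diphosphate to lanosterol, 0 of 3 had a row (Fdft1, Sqle and Lss), and none of them had a listed peak within 5 kb. The 10 genes of these lists were thus without a row of their own, beside 21.1% of all protein-coding genes with one. The counts by list, here and below, stand beside that same share. The lists are small, their differences were not tested, and no gap in the pathway is read from them.

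From lanosterol to cholesterol, 4 of 9 genes had a peak, with folds from 5.39 to 13.2, all above the list's median. Dhcr7 led them. Lbr, a sterol C14 reductase that also anchors heterochromatin at the nuclear envelope, had 69 fragments against 2 control fragments at the site, a fold of 6.84. Tm7sf2, a further C14 reductase gene, had 56 fragments and a fold of 5.39. Ebp, the sterol isomerase gene on chromosome X, had 20 fragments and a fold of 5.88. Control IgG had 0 fragments at the Ebp site, and the exact 95% lower limit of the depth-scaled ratio there was 1.40. Cyp51, Msmo1, Nsdhl, Hsd17b7 and Sc5d had no row. Among the 17 pathway peaks Dhcr7 was first by fold, which adds 1 to both sides, and by fragments. By the depth-scaled ratio without that addition, 21.8 at Dhcr7, it stood below Mbtps2 (49.3), Ebp (42.9) and Lrp8 (26.0), which had 13 to 23 fragments and 0 control fragments at the site. Their backgrounds were the genome rate or a 10 kb window.

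Among the genes that sense sterols and process SREBP, 4 of 7 had a row. Mbtps1, the site-1 protease gene, had 47 fragments and a fold of 8.36, and Mbtps2, the site-2 protease gene, had 23 fragments and a fold of 6.63. The control side had 0 fragments at either site, and the exact 95% lower limits of the depth-scaled ratio were 3.46 at Mbtps1 and 1.62 at Mbtps2. Insig2, the second INSIG gene, had 53 fragments against 4 control fragments and a fold of 3.20. The Insig2 summit lay 4790 bp inside the gene, so it and Dhcr7 were the 2 of 17 pathway peaks with a summit over 1 kb from the 5′ end. Srebf1 and Scap had no row.

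Of the genes of uptake and lysosomal release, 6 of 8 had a row. Npc1, which exports cholesterol from lysosomes, had 69 fragments and a fold of 8.49, at a control background of 1.42. Scarb1, the HDL receptor gene, had 30 fragments and a fold of 6.44, and Lrp8, an apolipoprotein E receptor gene, had 13 and 4.10, both with 0 control fragments at the site. The exact 95% lower limit of the depth-scaled ratio was 2.16 at Scarb1 and 0.862 at Lrp8, so that at the Lrp8 site alone equal coverage lay within the counting error. Stard4, a sterol carrier, had a fold of 4.39 and Lipa, the lysosomal acid lipase gene, 3.43. Mylip, a ubiquitin ligase gene that limits sterol uptake, had 65 fragments against 6 and a fold of 2.77, the lowest of the 17. Vldlr and Npc2 had no row. Of the efflux, storage and LXR genes, 2 of 8 had one, the sterol exporter Abcg1 with a fold of 4.20 and the liver X receptor gene Nr1h2 with 5.91, while Abca1, Nr1h3, Soat1, Soat2, Ch25h and Apoe had none.

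**Figure D4:**
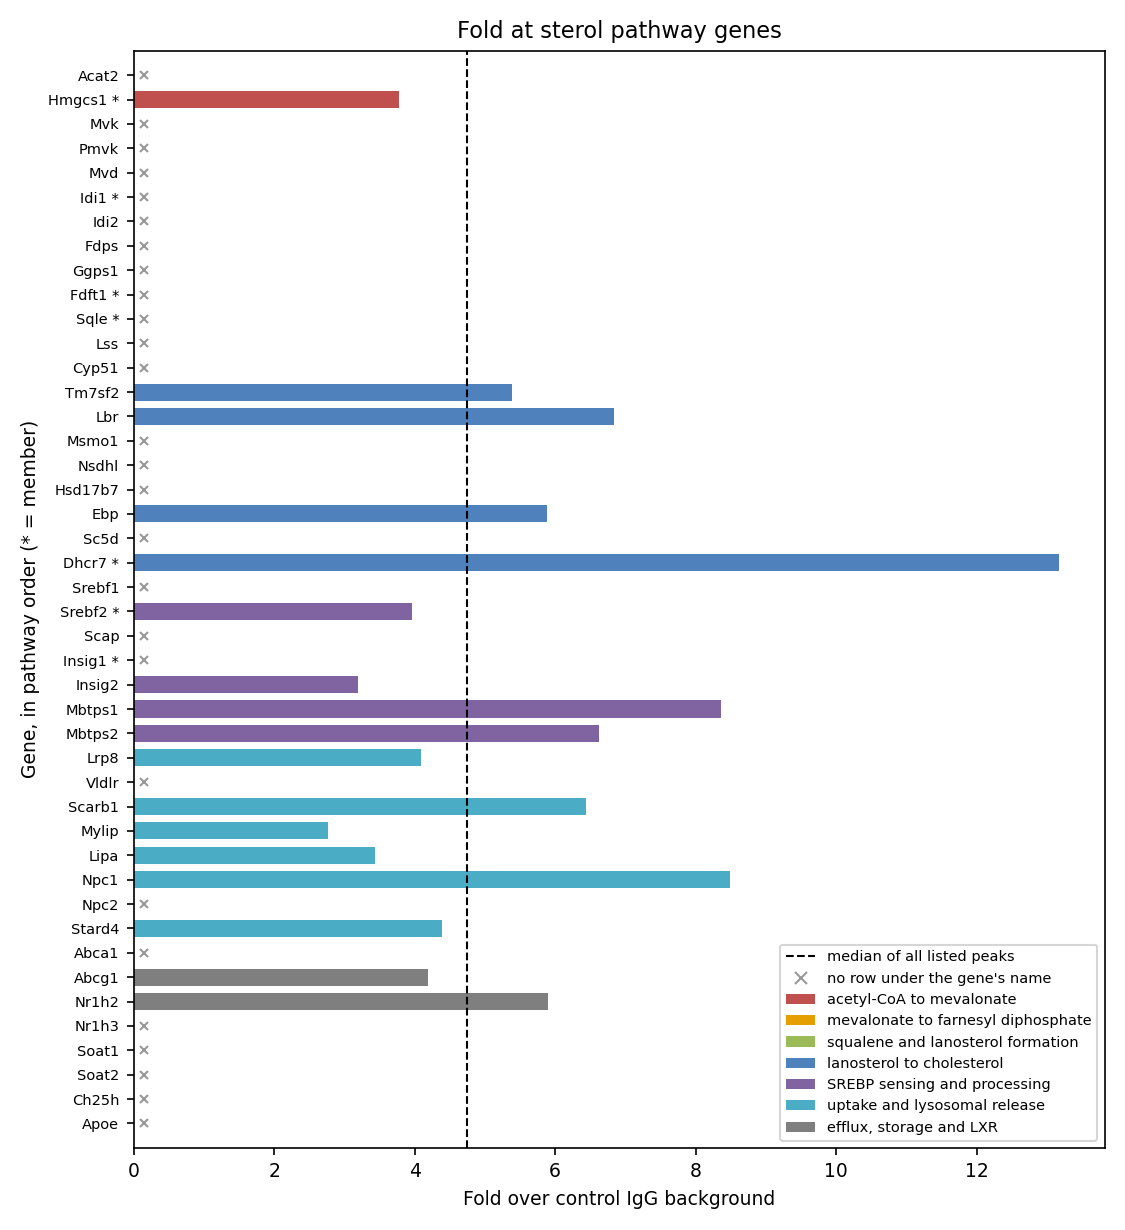
Fold over the control IgG background for 44 sterol genes in pathway order from top to bottom, coloured by list, with a cross where the gene has no row under its name. The dashed line is the median of all listed peaks, 4.74. The bar of Dhcr7 is the longest at 13.2. The 10 genes from Mvk to Lss have no bar, although a listed peak assigned to Arid4b lies over the Ggps1 start.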

How the data were processed

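ATAC-seq of 7 samples was deposited as a single annotated peak list. The submitters' processing notes name the aligner BWA 0.7.9a, the peak caller MACS2 2.1.0.20150420, the tools bedtools, DESeq2 and DiffBind 2.0.7, and build mm10, with no order. Cut-site shifting, duplicate handling and pooling are not given in the sources used here, and each side was taken as a pool of its group. The deposited signal is a pileup and the deposited ratio a fold enrichment, per the file headers. That the pileup counts fragments was inferred from its even steps and not from a header. The −log10 p and −log10 q columns, deposited by the authors under damaged headers, were read from their place. A Poisson p computed anew stayed within 0.000143 of the first of them.

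Every pileup was a whole multiple of 0.283 (tolerance 0.005), which gave fragments, and the background followed from the fold. It came from the site, a 1 kb window, a 10 kb window or the genome rate of 0.132, with a fragment length of 236 bp. The steps were tested on simulated data. Ratios have exact conditional binomial 95% intervals. Depth per sample is unknown. The design foresaw values per sample and none were found, so nothing was tested. Gene names of 5477 peaks matched RefSeq symbols or synonyms, and 3 that lay more than 1000 kb from the gene or on another chromosome were dropped. All 44 pathway genes matched, and some further pathway genes are not reported here. Coordinates are as the file gives them. The named genes are the 7 members, every gene of the pathway lists and neighbours within 5 kb. Members, lists and motifs were chosen with earlier results of these data known. Python 3.11.15, pandas 2.3.3 and scipy 1.17.1 were used.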

Additional observations from a re-analysis of the deposited data

How the results depend on the processing

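Of the sterol genes, 3 of 7 kept a row at a q of 0.01, and 4 had a peak within 5 kb. With TSS peaks alone the count of 3 could not change, since all 3 peaks are in the TSS section. With a pileup of at least 20, the listed peaks of the 7 genes fell to 1, the genes with a row to 1 and the wider pathway to 1, in each case Dhcr7. That filter keeps the deepest peaks by construction. The rank of the Dhcr7 peak was 20 by fold, 51 by pileup and 7 by q, and 1 by fold among peaks of like depth, a set chosen after seeing the data. Its ratio was 21.8 against the caller's window and 30.8 against 1 control fragment at the site, which lies inside the interval of the first. The exact lower limits for sites with 0 control fragments, and the medians with such peaks reset, were also chosen after seeing the data. The median fold of the 3 peaks was 3.96, and taking 1 peak a gene could not change it, since each gene had 1. Leaving out replicates was not run, since no column carries a sample. No paired analysis was possible because the values are 1 per comparison. The depth of the control side limits every ratio here, with 3 to 18 fragments behind each background of Dhcr7, Hmgcs1, Srebf2 and Insig1.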

Other observations

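Where the background was set by the genome rate of 0.132, fold followed from the anti-IFNAR1 fragments alone. This held for 2 of the 17 pathway peaks, Ebp with 20 fragments and Mbtps2 with 23, and for 644 of the 6395 listed peaks.

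Lrp8 had a further listed peak 1103 bp past its 5′ end, which the file assigned to the antisense gene Lrp8os3, with 27 anti-IFNAR1 fragments, 1 control IgG fragment in the surrounding 1 kb and a fold of 6.98. The control side had 0 fragments at the site itself, where the exact 95% lower limit of the depth-scaled ratio was 1.93. A peak 70 bp from the span of Nr1h3, another liver X receptor gene, was assigned to the start of Madd, with 80 fragments and a fold of 3.20.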
